A study of Mus musculus with 10 samples.

Results

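The genes described here encode the nuclear subunits of complex II and complex III of the respiratory chain, the electron carrier cytochrome c, and ATP synthase with its inhibitor and assembly factors. They were chosen by symbol or synonym. The rule takes Sdha to Sdhd, Sdhaf1, Sdhaf2, Cyc1, Cycs, every Uqcr and Uqcc gene, every nuclear Atp5 gene, Atpif1, Atpaf1 and Atpaf2, and leaves out pseudogenes. It found 40 of the 18055 gene IDs listed in any library, with 6 genes for complex II, 12 for complex III, 1 for cytochrome c and 21 for ATP synthase. All 40 passed the filter on low counts, so no member was dropped. Dmac2, a complex I assembly factor with an Atp5 synonym, was left out, and Dmac2l, also known as Atp5s, was kept. Subunits that the mitochondrial DNA encodes are not analysed here.

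Complex II, or succinate dehydrogenase, oxidizes succinate in the Krebs cycle and passes the electrons to ubiquinone. Complex III takes electrons from ubiquinone, hands them to cytochrome c and pumps protons out of the matrix. ATP synthase lets the protons flow back through a ring of c subunits in its membrane sector, Fo, and the turning of the ring drives ATP synthesis in the F1 head. Hepatocytes are rich in mitochondria, and electrons from fatty acid oxidation enter this chain.

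The RNA came from primary hepatocytes of C57BL/6 mice, isolated by collagenase perfusion, plated in medium with serum and moved to serum-free medium overnight before treatment. The 5 groups of 2 libraries were Vehicle, PA (200 μM palmitate for 24 h), LA (12 μM linoleate for 24 h), PA+NTP and LA+NTP, in which 1 h of Neurotropin (NTP, a non-protein extract of inflamed rabbit skin, at 0.4 NU per mL) came before the same free fatty acid (FFA). There was no group with NTP alone, so an effect of NTP could be read only in the presence of an FFA, and the dose of NTP comes from the study, since the labels give none. The labels do not say whether the 2 libraries of a group came from separate cultures or mice, so the p-values measure only the spread between these libraries.

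Libraries held 13142588 to 60046937 expected counts, which are RSEM's estimates of the reads from each gene. The FPKM values are the authors' estimates per kilobase of transcript and per unit of sequencing depth, and levels are compared between genes only in FPKM. Changes are log2 fold changes with their standard error (SE) from edgeR's quasi-likelihood fit of all 10 libraries, with p adjusted by Benjamini-Hochberg over the 14097 genes tested. A member rose or fell when its adjusted p was under 0.05, and passed the fold threshold when the fold was also at least 1.5. With 2 libraries against 2, an exact permutation test of a single gene cannot go below p = 0.333, so every call rests on a spread shared across genes. Hepatocyte markers (8 genes) summed to 7455 and 7744 FPKM with Vehicle, 5993 and 6436 under PA, 7446 and 7488 under LA, 6808 and 7966 under PA+NTP, and 8361 and 8738 under LA+NTP. Tf, Alb and Fgb made up most of that sum. Of the 8, 4 fell and 0 rose with PA (22.0% and 23.5% of all genes), 3 past the fold threshold (8.92%). Apoa1 went from 547 and 440 FPKM with Vehicle to 208 and 181 with PA. Hnf4a went from 67.05 and 66.55 to 37.2 and 41.6, and Apob from 300 and 324 to 296 and 314. Of 6 stellate and fibroblast markers 4 fell and 0 rose with PA, 3 past the fold threshold. Macrophage markers (8 genes) summed to 217 to 218 FPKM with Vehicle, 218 to 252 with PA, 139 to 143 with LA, 279 to 312 with PA+NTP and 194 to 206 with LA+NTP. Most of that sum was Cd68, at 203 FPKM in both Vehicle libraries, 195 and 232 under PA and 122 and 126 under LA, and other macrophage markers went other ways. With PA Marco was 5.52-fold and Lyz2 1.62-fold higher and Cd5l fell by 1.11 on the log2 scale, and with LA Lyz2 rose by 0.47 and Cd68 fell by 0.67. Endothelial markers (6 genes) summed to 38.2 to 38.3 FPKM with Vehicle, 28.3 to 29.6 with PA, 29.4 to 32.4 with LA, 30.2 to 34.65 with PA+NTP and 38.8 to 41.4 with LA+NTP. Cholangiocyte markers (4 genes) summed to 11.03 to 12.96, 7.68 to 8.10, 9.67 to 9.98, 12.39 to 12.97 and 14.5 to 14.6 FPKM in the same order. Most of that sum was Sox9, at 12.09 and 10.34 FPKM with Vehicle. Krt19, at a low level, stayed below Vehicle (0.64 and 0.67) with PA+NTP (0.15 and 0.38) but not with LA+NTP (0.85 and 0.92). All 3 neutrophil markers were at 0 in every library. The part of these marker levels in the results was not tested. In bulk RNA, fewer cells of a type and less RNA per cell cannot be told apart.

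Levels spanned a wide range. Atp5b, which encodes the catalytic β subunit of F1, had the highest level of all members, with a mean of 479 FPKM over the 10 libraries, and Dmac2l had the lowest, with 5.30. In complex III the mean ran from 381 FPKM for Uqcrb, a small ubiquinone-binding subunit, down to 13.1 for the assembly factor Uqcc1. In complex II it ran from 105 FPKM for Sdhb, the iron-sulfur subunit, down to 9.74 for the assembly factor Sdhaf1. Cycs, cytochrome c itself, had a mean of 76.6 FPKM. The assembly factors had means of 8.59 to 18.3 FPKM, with the exception of Uqcc2 at 72.5 FPKM.

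**Figure D1:**
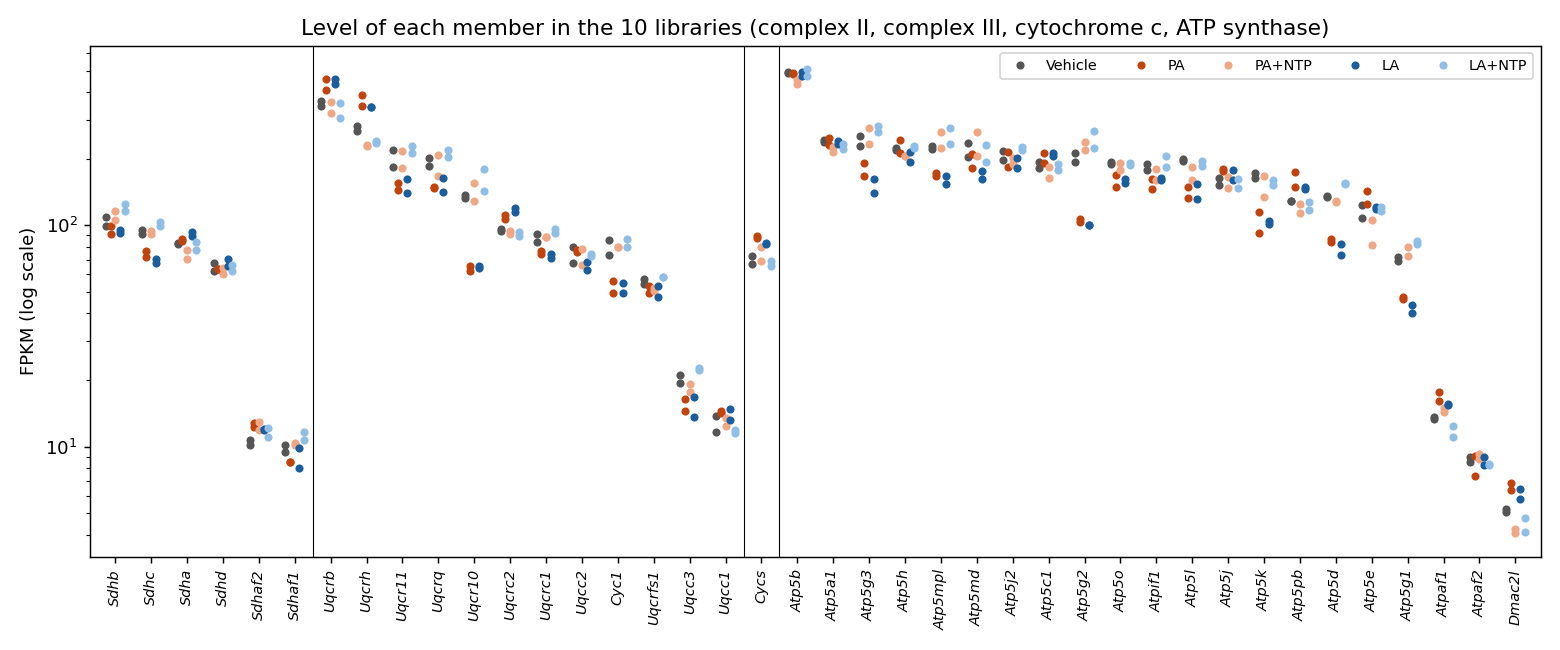
Level of each of the 40 members in FPKM on a log axis, with 1 point per library, colored by group, and members ordered by mean level within complex II, complex III, cytochrome c and ATP synthase. Atp5b tops the plot at a mean of 479 FPKM, and the PA and LA points of Uqcr10 and Atp5g2 lie well below their other points.

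With PA, 8 of the 40 members rose and 16 fell relative to Vehicle. Among all 14097 genes tested 23.5% rose and 22.0% fell by the same rule, so the share of members that rose was near that background and the share that fell was above it. With LA, 9 members rose and 16 fell, beside 20.8% and 20.5% of all genes. NTP before PA was followed by a rise of 13 members and a fall of 14 relative to PA alone, beside 21.7% and 23.0% of all genes. NTP before LA was followed by a rise of 17 members and a fall of 10 relative to LA alone, beside 25.9% and 25.6%. When the GC trend described further on was removed, 7 members rose and 10 fell with PA, and 4 rose and 10 fell with LA. With PA+NTP 9 rose and 12 fell, and with LA+NTP 13 rose and 10 fell. In those 4 fits 31.6%, 17.4%, 27.9% and 27.9% of all genes passed in either direction. The FFA and NTP comparisons share libraries, since each FFA group is also the reference of its NTP group and the Vehicle libraries serve both FFAs, so the opposite directions of their fold changes are given side by side and were not counted as separate evidence.

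Fewer members passed the fold threshold of 1.5 than the adjusted p alone. With PA, 0 rose and 4 fell by that much (Uqcr10, Atp5g2, Atp5k and Atp5d), beside 6.00% and 8.92% of all genes. With LA, 0 rose and 6 fell (Uqcr10, Atp5g2, Atp5d, Atp5g1, Atp5k and Atp5g3), beside 3.53% and 7.11%. With PA+NTP relative to PA, 3 rose (Uqcr10, Atp5g2 and Atp5g1) and 2 fell (Uqcrh and Dmac2l), beside 8.74% and 5.11%. With LA+NTP relative to LA, 7 rose (Uqcr10, Atp5g2, Atp5g1, Atp5d, Atp5g3, Cyc1 and Atp5mpl) and 0 fell, beside 11.7% and 7.57%. The members' median log2 fold change stood at -0.07 for PA, at -0.09 for LA, at 0.002 for PA+NTP relative to PA and at 0.17 for LA+NTP relative to LA, where the median of all genes lay between -0.008 and 0.010. The rule of the study for differential expression (NOISeq, a probability of at least 0.95 and the same fold) called 0 members in each of these comparisons, and the highest probability of any member was 0.900. It also called few of all genes, namely 0.0350% with PA, 0.0583% with LA, 0.0464% with PA+NTP and 0.0634% with LA+NTP.

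**Figure D2:**
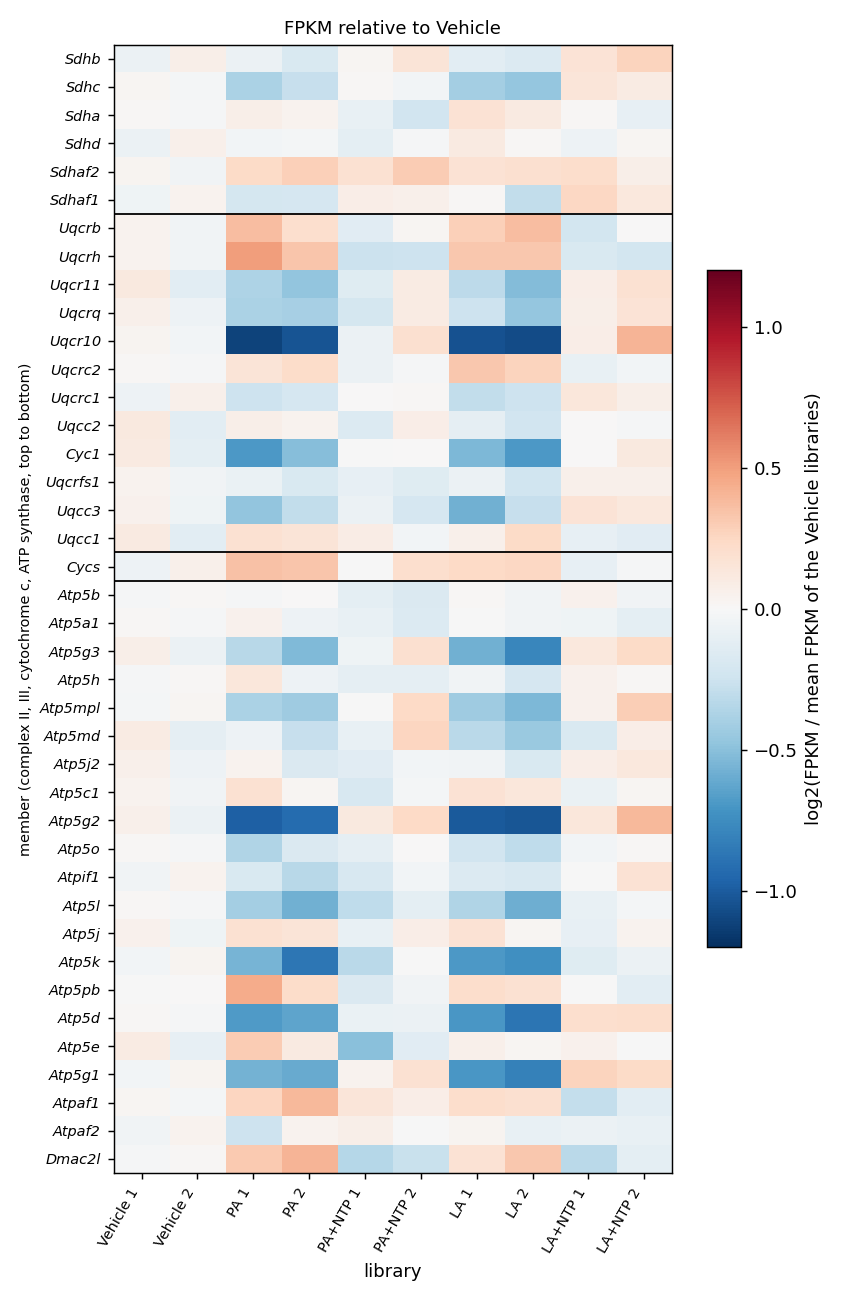
FPKM of each member in each library as log2 of its ratio to the mean of the 2 Vehicle libraries, with red for higher and blue for lower. The PA and LA columns are dark blue for Uqcr10 and Atp5g2 and red for Uqcrh and Uqcrb, and the PA+NTP and LA+NTP columns are near white or of the other color.

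In complex III, subunits moved in opposite directions. With PA 6 of the 12 genes fell and 3 rose, with LA 6 fell and 3 rose, and with NTP 5 rose and 3 fell relative to PA and 6 rose and 4 fell relative to LA. Of all genes, 20.5% to 25.9% passed in each direction in these comparisons, and the counts were not tested against that share. Uqcr10 (chromosome 11, 4701968 to 4704344, GRCm38.p6), a small subunit without a heme or metal center, had the largest fold change of all members in each of the 4 comparisons of an FFA with Vehicle or of NTP with the FFA alone. It stood at 138 and 132 FPKM in the Vehicle libraries, 62.3 and 65.8 under PA, 65.5 and 64.0 under LA, 129 and 155 under PA+NTP, and 143 and 179 under LA+NTP. All 4 FFA libraries lay below the other 6, with no overlap. In edgeR the level was 2.05-fold lower with PA (log2 fold change -1.04, SE 0.12, adjusted p = 9.03e-06) and 2.02-fold lower with LA (-1.01, SE 0.11, adjusted p = 1.35e-05). It was 2.12-fold higher with PA+NTP than with PA (log2 fold change 1.08, SE 0.11) and 2.42-fold higher with LA+NTP than with LA (1.28, SE 0.11).

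Uqcrh (chromosome 4, 116066965 to 116075070, GRCm38.p6), the hinge protein that sits where complex III meets cytochrome c, moved the other way. Its level was 282 and 266 FPKM in the Vehicle libraries, 389 and 345 under PA, 343 and 342 under LA, 229 and 230.1 under PA+NTP, and 240.5 and 235 under LA+NTP. Both FFA groups lay above Vehicle and both NTP groups below it. The log2 fold change was 0.45 (SE 0.07) with PA, 0.37 (SE 0.07) with LA, -0.73 (SE 0.07, adjusted p = 1.77e-06 in edgeR) with PA+NTP relative to PA and -0.57 (SE 0.06, adjusted p = 6.52e-06) with LA+NTP relative to LA. The ratio of Uqcrh to Uqcr10 in FPKM, set side by side after the values were seen, was 2.05 and 2.01 in the Vehicle libraries, 6.24 and 5.25 under PA, 5.24 and 5.34 under LA, 1.78 and 1.49 under PA+NTP, and 1.68 and 1.31 under LA+NTP.

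Cyc1 encodes the heme subunit of complex III that passes electrons to cytochrome c. Its level was 85.8 and 73.7 FPKM in the Vehicle libraries, 49.5 and 55.9 under PA, 54.9 and 49.4 under LA, 79.8 and 80.0 under PA+NTP, and 79.8 and 86.7 under LA+NTP. The PA and LA libraries lay below all others. In edgeR Cyc1 fell with PA by 0.55 (SE 0.09) and with LA by 0.56 (SE 0.09) on the log2 scale, and rose by 0.53 (SE 0.09) with PA+NTP and by 0.63 (SE 0.08) with LA+NTP relative to the FFA alone.

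The paired core proteins of complex III went in opposite directions. Uqcrc1 stood at 84.4 and 91.7 FPKM with Vehicle, 73.9 and 76.7 under PA, 71.5 and 74.0 under LA, 88.3 and 88.7 under PA+NTP, and 96.6 and 92.4 under LA+NTP. Uqcrc2 stood at 96.3 and 94.8 FPKM with Vehicle, 106 and 112 under PA, 119.5 and 115 under LA, 91.1 and 94.4 under PA+NTP, and 89.95 and 93.1 under LA+NTP. Uqcrc1 was thus lower in the FFA libraries and Uqcrc2 higher, without overlap with Vehicle. The log2 fold changes of Uqcrc1 were -0.19 (SE 0.06) with PA, -0.23 (SE 0.06) with LA, 0.17 (SE 0.06) with PA+NTP relative to PA and 0.34 (SE 0.06) with LA+NTP relative to LA. Those of Uqcrc2 were 0.22, 0.34, -0.29 and -0.40 in the same order, each with an SE of 0.06, and all 8 changes passed the adjusted p. The Uqcrc1 changes turned direction, and those of Uqcrc2 no longer passed, once the GC trend described further on was removed (Uqcrc1 0.17, 0.15, -0.21 and -0.16, of which the third passed, and Uqcrc2 0.04, 0.12, -0.10 and -0.14).

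Of the small subunits, Uqcr11 and Uqcrq fell with both FFAs and rose with NTP, and Uqcrb did the reverse. Uqcr11 had log2 fold changes of -0.40 (PA), -0.36 (LA), 0.36 (PA+NTP) and 0.50 (LA+NTP) (SE 0.10 to 0.11). Uqcrq, which helps hold cytochrome b in the membrane, had -0.35, -0.30, 0.28 and 0.43 (SE 0.10), and Uqcrb had 0.32, 0.38, -0.40 and -0.47 (SE 0.09). In FPKM, Uqcrb stood at 365 and 345 with Vehicle, 459 and 408 under PA, 433 and 459 under LA, 322 and 359.6 under PA+NTP, and 304 and 356 under LA+NTP, while Uqcr11 went from 218 and 184 with Vehicle to 155 and 144 with PA and 162 and 141 with LA. With the GC trend removed Uqcr11 turned direction in all 4 comparisons (0.03, 0.09, -0.09 and -0.08, none past the adjusted p), and no change of Uqcrb passed. Uqcrq then passed with PA and LA+NTP and not with LA (-0.27) or PA+NTP (0.24). Uqcrfs1, the Rieske iron-sulfur protein at the catalytic center, passed with the GC trend removed for LA+NTP relative to LA (0.21) and otherwise in no comparison, with 57.5 and 54.2 FPKM with Vehicle, 53.0 and 49.2 with PA and 53.3 and 47.5 with LA.

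Among the complex III assembly factors, Uqcc3, which stabilizes the early cytochrome b intermediate, fell with PA (-0.33, SE 0.12) and LA (-0.38, SE 0.12) and rose with LA+NTP relative to LA (0.53, SE 0.11). Uqcc1 fell with LA+NTP relative to LA (-0.30, SE 0.09), and Uqcc2, its partner in binding newly made cytochrome b, passed in no comparison. Uqcc3 with the GC trend removed did not pass with PA (-0.17) or LA (-0.23) but did with LA+NTP (0.34). In the same fit Uqcc2 passed with PA (0.51), PA+NTP (-0.59) and LA+NTP (-0.45), not with LA (0.33), and Uqcc1 passed in all 4 comparisons (0.32, 0.29, -0.31 and -0.43). Several complex III calls with small folds were lost when 1 library was left out. With PA, Uqcr11 (-0.27), Uqcrq (-0.29) and Uqcc3 (-0.28) no longer passed without Vehicle replicate 1, and Uqcrb (0.28), Uqcrc1 (-0.13), Uqcrc2 (0.21) and Uqcc3 (-0.39) without Vehicle replicate 2. Without PA replicate 1 the same held for Uqcrb (0.23), Uqcrc1 (-0.17) and Uqcc3 (-0.27), and without PA replicate 2 for Uqcr11 (-0.33), Uqcrq (-0.34) and Uqcrc2 (0.19). With LA, Uqcr11, Uqcrq and Uqcc3 were lost without Vehicle replicate 1 (-0.23, -0.24 and -0.32), Uqcr11 and Uqcrq without LA replicate 2 (-0.26 and -0.20), Uqcrc1 and Uqcc3 without LA replicate 1 (-0.20 and -0.22), and Uqcrc1 without Vehicle replicate 2 (-0.17). With PA+NTP relative to PA, Uqcrc1 and Uqcrq were lost without PA replicate 1 (0.15 and 0.29), and Uqcr11, Uqcrc1 and Uqcrq without PA replicate 2 (0.29, 0.19 and 0.26) or PA+NTP replicate 2 (0.20, 0.14 and 0.09). The fall of Uqcc1 was lost without LA replicate 2 (-0.23) or LA+NTP replicate 2 (-0.29). In the comparisons of each FFA with Vehicle and of NTP with the FFA alone, Uqcr10, Uqcrh and Cyc1 passed with each of the 10 libraries left out in turn and with the GC trend removed.

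Cycs encodes the mobile carrier between complex III and cytochrome c oxidase. Its level was 66.7 and 72.7 FPKM with Vehicle, 89.2 and 87.7 under PA, 82.5 and 82.9 under LA, 69.3 and 80.2 under PA+NTP, and 65.3 and 69.1 under LA+NTP. Both FFA groups lay above Vehicle. In edgeR Cycs rose by 0.38 (SE 0.08, adjusted p = 0.000983) with PA and by 0.29 (SE 0.07) with LA on the log2 scale, and fell with PA+NTP (-0.30, SE 0.07) and with LA+NTP (-0.34, SE 0.07). At 40.8% GC its transcript is among the members lowest in GC, and with the GC trend removed none of the 4 changes passed (0.05, -0.07, 0.02 and 0.09). The call with LA was lost without Vehicle replicate 1 (0.23), and that with PA+NTP without PA+NTP replicate 1 (-0.18). Of its 31-base stretches 31.8% also occur in transcripts of other genes, Gm10053 foremost, so the split of reads between them is uncertain.

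**Figure D3:**
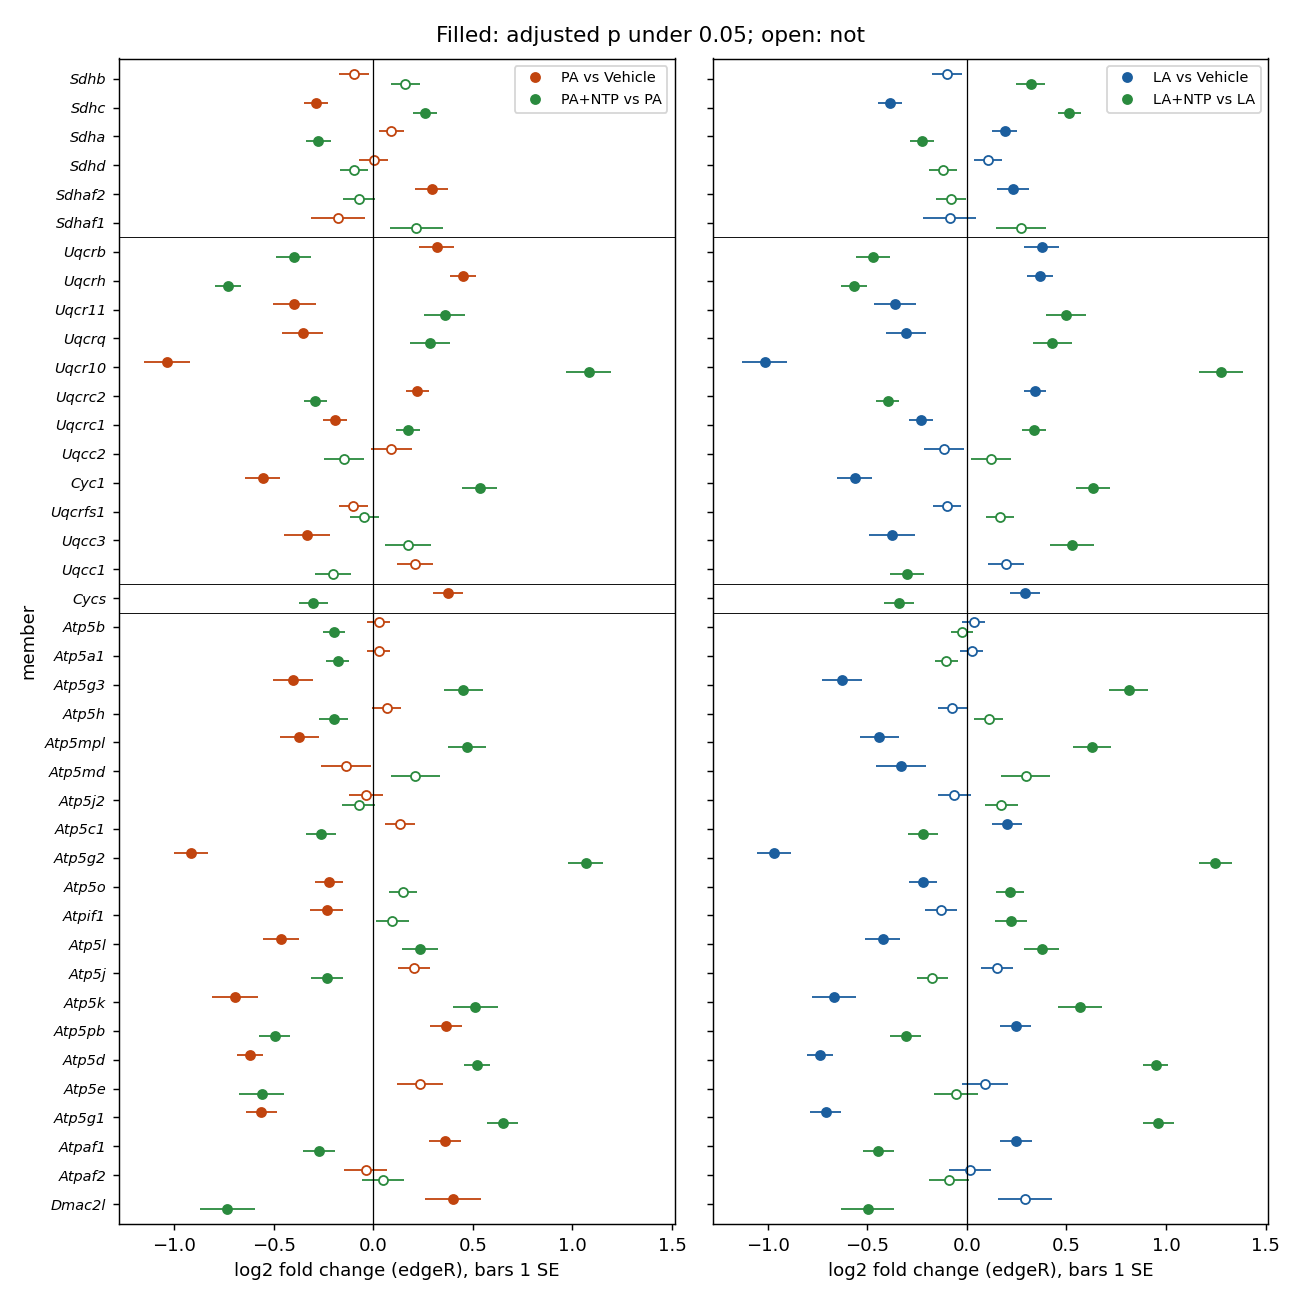
Log2 fold change of each member (points, edgeR) with 1 SE (bars), for PA and PA+NTP in the left panel and LA and LA+NTP in the right, filled where the adjusted p was under 0.05. Green NTP points lie across zero from the FFA points for most members that passed, from Uqcr10 (-1.04 and 1.08 in the left panel) to Uqcrh (0.45 and -0.73).

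Complex II has 6 genes here, of which 1 rose and 1 fell with PA, 2 rose and 1 fell with LA, 1 rose and 1 fell with PA+NTP, and 2 rose and 1 fell with LA+NTP. The shares of all genes given above for these comparisons run from 20.5% to 25.9% in each direction, so nothing is read from these counts. None of the 6 passed the fold threshold in these comparisons. Sdhc, a membrane anchor that binds ubiquinone and heme, stood at 94.9 and 91.3 FPKM with Vehicle, 71.6 and 76.9 under PA, 70.2 and 67.7 under LA, 94.3 and 91.3 under PA+NTP, and 103 and 99.6 under LA+NTP. The FFA libraries lay below all others. Sdhc fell by 0.29 (SE 0.06) with PA and by 0.39 (SE 0.06, adjusted p = 0.000172 in edgeR) with LA, and rose by 0.26 (SE 0.06) with PA+NTP and 0.51 (SE 0.06, adjusted p = 6.97e-06) with LA+NTP. These 4 changes were about as large with the GC trend removed (-0.30, -0.42, 0.28 and 0.55). The GC content of Sdhc came from a transcript of 3171 bases, while its deposited length averages 1179, so these values are less certain.

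Sdha, the flavoprotein that holds the succinate site, had values of 83.3 and 82.0 FPKM with Vehicle, 87.0 and 84.9 under PA, 93.3 and 89.3 under LA, 77.7 and 70.3 under PA+NTP, and 83.7 and 77.0 under LA+NTP. It rose with LA (0.19, SE 0.06) and fell with PA+NTP (-0.27, SE 0.06) and LA+NTP (-0.23, SE 0.06), so it moved against Sdhc. Its rise with LA did not pass with the GC trend removed (0.15), or without Vehicle replicate 1 (0.20), Vehicle replicate 2 (0.17) or LA replicate 1 (0.16), nor did its fall with LA+NTP without LA replicate 1 (-0.20) or LA+NTP replicate 2 (-0.17). Sdhb, with its iron-sulfur clusters, rose with LA+NTP relative to LA, from 95.5 and 92.8 to 117 and 125 FPKM (0.32, SE 0.07), a change that was 0.003 with the GC trend removed. Sdhd, the other membrane anchor, did not pass in any comparison and stayed between 60.03 and 70.3 FPKM. Sdhaf2, which helps attach the flavin to Sdha, rose with PA (0.29, SE 0.08) and LA (0.23, SE 0.08), and neither rise passed with the GC trend removed (0.17 and 0.08). The rise of Sdhaf2 with PA was lost without Vehicle replicate 2 (0.25) or PA replicate 2 (0.27), and that with LA without any of the 4 libraries compared (0.19 to 0.27). Sdhaf1, which helps insert the iron-sulfur clusters of Sdhb, did not pass in any comparison.

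For ATP synthase, 3 of the 21 genes rose and 9 fell with PA, 3 rose and 9 fell with LA, 7 rose and 9 fell with PA+NTP relative to PA, and 9 rose and 4 fell with LA+NTP relative to LA. As above, 20.5% to 25.9% of all genes passed in each direction, and these counts were not tested against that share. The genes that fell with the FFAs included the 3 that encode subunit c, the δ subunit of F1 (Atp5d) and small membrane subunits, while the α and β subunits of F1 passed with neither FFA. Atp5b stood at 486 and 493 FPKM with Vehicle, 485 and 490.0 under PA, 495 and 475 under LA, 451 and 435 under PA+NTP, and 508 and 474 under LA+NTP. Its log2 fold change was 0.03 (SE 0.06) with PA and 0.03 (SE 0.06) with LA, neither past the adjusted p, and -0.20 (SE 0.06, adjusted p = 0.0116 in edgeR) with PA+NTP relative to PA. That fall did not pass under library-size scaling, in either limma fit of the FPKM or when only the groups compared were fitted, and its value lay between -0.32 and -0.14 over the 11 alternative fits. Atp5a1, the α subunit, likewise had 0.03 and 0.02 with the FFAs and -0.18 (SE 0.06) with PA+NTP, a fall that did not pass under the same settings, with genes of a mean FPKM of at least 1 only, or without PA replicate 1 (-0.13) or PA+NTP replicate 2 (-0.17).

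**Figure D4:**
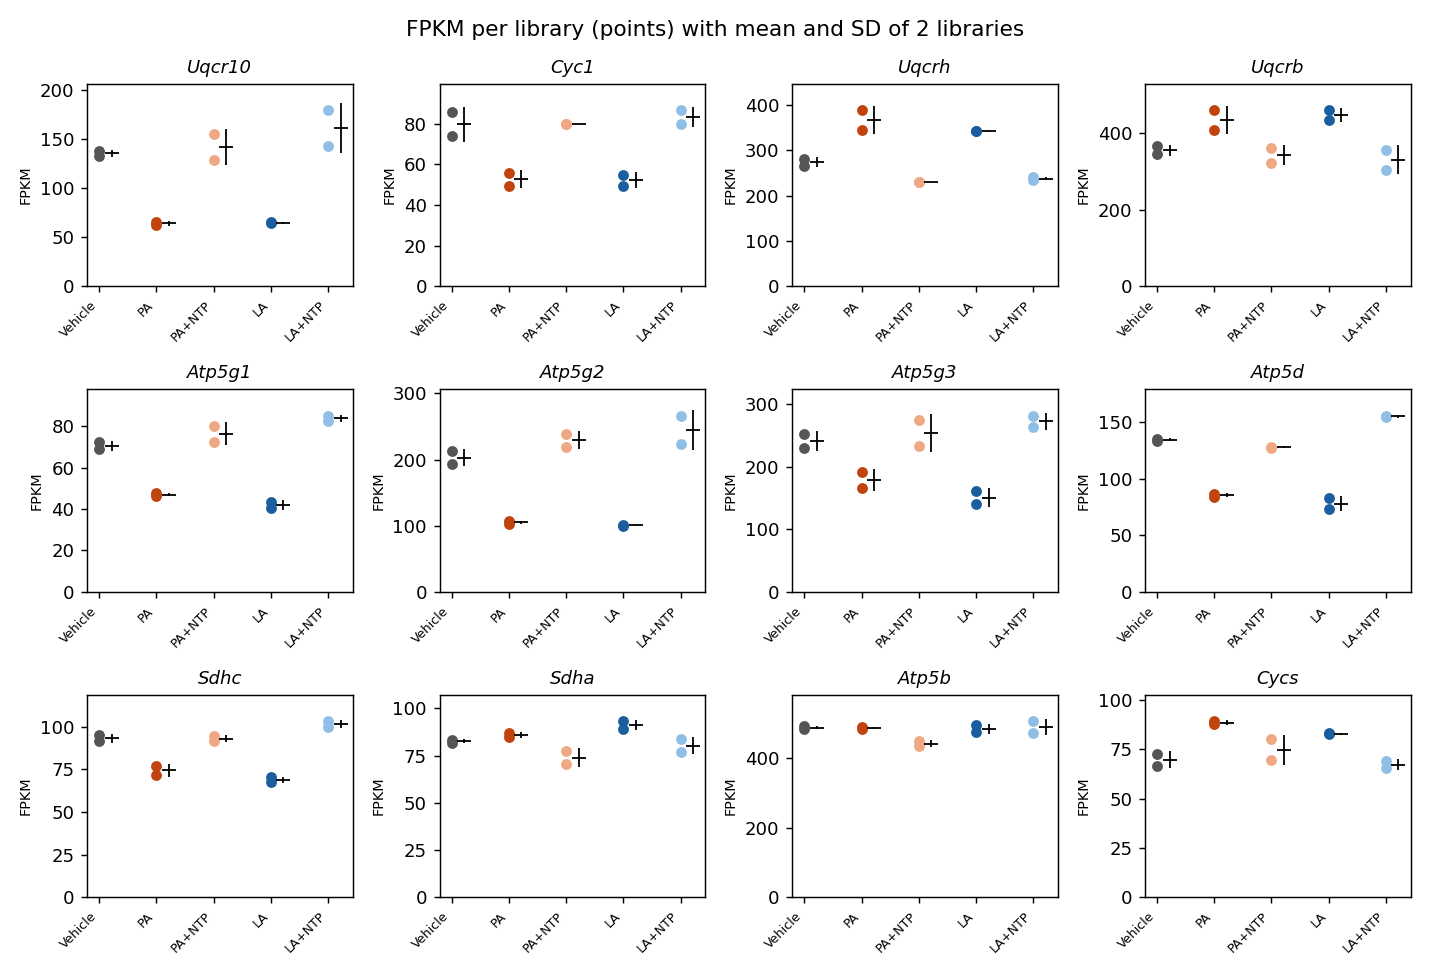
FPKM of 12 members in each library (colored points, 2 per group) with the group mean and SD beside them, on axes that start at 0. Uqcr10, Cyc1, the 3 subunit c genes, Atp5d and Sdhc dip with PA and LA, Uqcrh, Uqcrb and Cycs rise, and Atp5b stays between 435 and 508 FPKM.

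Subunit c, the protein of the rotating ring, is encoded by Atp5g1, Atp5g2 and Atp5g3 on different chromosomes. Their precursors carry different import signals but yield the same mature protein. The last 120 coding bases of each, stop codon included, lie in exons 4 and 5 of the GENCODE transcript on GRCm38 and code for the end of that protein. They are shown because the 3 genes make the same protein stretch from different mRNA letters. Capitals mark the positions where the 3 do not all have the same base.
Atp5g1, chr11:96073104-96073527, minus strand: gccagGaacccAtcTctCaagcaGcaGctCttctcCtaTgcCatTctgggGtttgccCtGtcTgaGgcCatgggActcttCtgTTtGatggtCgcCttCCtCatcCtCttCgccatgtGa
Atp5g2, chr15:102663014-102665058, minus strand: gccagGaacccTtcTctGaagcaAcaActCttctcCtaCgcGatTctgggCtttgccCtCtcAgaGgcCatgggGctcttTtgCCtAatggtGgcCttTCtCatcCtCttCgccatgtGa
Atp5g3, chr2:73908593-73909188, minus strand: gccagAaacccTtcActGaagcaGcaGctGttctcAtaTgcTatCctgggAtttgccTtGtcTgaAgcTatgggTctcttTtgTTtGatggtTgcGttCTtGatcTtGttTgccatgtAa
All 3 share 89 of the 120 bases. Atp5g1 and Atp5g2 share 104, Atp5g1 and Atp5g3 98, and Atp5g2 and Atp5g3 92, and no stretch of 31 bases of any of the 3 tails occurs in another. The GC content of the tails is 55% in Atp5g1, 54.2% in Atp5g2 and 45% in Atp5g3.

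All 3 subunit c genes fell with both FFAs and rose when NTP preceded them. Atp5g2 stood at 212 and 194 FPKM with Vehicle, 103 and 107 under PA, 101 and 99.97 under LA, 219.5 and 239 under PA+NTP, and 223 and 266 under LA+NTP. Atp5g1 stood at 68.8 and 72.2 FPKM with Vehicle, 47.5 and 46.3 under PA, 43.5 and 40.3 under LA, 72.4 and 80.2 under PA+NTP, and 85.1 and 82.6 under LA+NTP. Atp5g3 stood at 252 and 229 FPKM with Vehicle, 191 and 166 under PA, 161 and 140.1 under LA, 232 and 274 under PA+NTP, and 263 and 281 under LA+NTP. In each of the 3 genes the 4 FFA libraries lay below all other libraries.

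In edgeR Atp5g2 was 1.89-fold lower with PA (log2 fold change -0.91, SE 0.09, adjusted p = 2.65e-06) and 1.96-fold lower with LA (-0.97, SE 0.09), and 2.10-fold and 2.38-fold higher with PA+NTP and LA+NTP (1.07, SE 0.09, and 1.25, SE 0.08). Atp5g1 had log2 fold changes of -0.56 (PA), -0.71 (LA), 0.65 (PA+NTP) and 0.96 (LA+NTP), each with an SE of 0.08. Atp5g3 had -0.40, -0.63, 0.45 and 0.81 in that order, each with an SE of 0.10. The fall of Atp5g3 with PA did not pass without Vehicle replicate 1 (-0.33) or PA replicate 2 (-0.29). With the GC trend removed all 12 changes still passed, at -0.60, -0.63, 0.73 and 0.81 for Atp5g2, -0.26, -0.39, 0.33 and 0.55 for Atp5g1, and -0.35, -0.58, 0.40 and 0.75 for Atp5g3.

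Summed over the 3 genes, subunit c mRNA was 533 and 495 FPKM with Vehicle, 342 and 319.5 under PA, 305 and 280.4 under LA, 524 and 594 under PA+NTP, and 571 and 630.4 under LA+NTP. Atp5g2 supplied 39.8% and 39.1% of this sum with Vehicle, 30.2% and 33.5% with PA and 33.0% and 35.7% with LA, and 39.1% to 42.3% in the 4 NTP libraries. Atp5g3 supplied 46.3% to 47.3% with Vehicle and 49.98% to 55.9% in the 4 FFA libraries. The share of Atp5g1 stayed between 12.9% and 14.9%. These shares were computed after the values were seen and were not tested. The split of reads is uncertain for Atp5g2 and Atp5g1, since 87.7% and 67.3% of the 31-base stretches of their transcripts also occur in transcripts of other genes (Gm10175 and Gm10231, and Gm10039), while Atp5g3 shares none.

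Atp5d, a subunit of the central stalk that turns with the c ring, stood at 136 and 134 FPKM with Vehicle, 84.2 and 86.9 under PA, 82.7 and 73.5 under LA, 127 and 128 under PA+NTP, and 154 and 156 under LA+NTP. Its FFA libraries lay below all others. In edgeR it was 1.53-fold lower with PA (log2 fold change -0.62, SE 0.07) and 1.67-fold lower with LA (-0.74, SE 0.06), and rose by 0.52 (SE 0.06) with PA+NTP and 0.95 (SE 0.06) with LA+NTP. Atp5d has the highest GC content of the members, 61.1%, and with the GC trend removed its changes were -0.09, -0.18, -0.03 and 0.24, of which the last passed. Its exons also overlap those of Cbarp on the opposite strand, and whether the counting used strand is not given in the sources used here. Of the other central stalk subunits, Atp5e, the ε subunit, fell with PA+NTP relative to PA (-0.56, SE 0.11), from 143 and 125 to 81.6 and 106 FPKM, and was at 0.23 and 0.09 with the FFAs without passing. It passed with the GC trend removed with PA (0.47), PA+NTP (-0.80) and LA+NTP (-0.36). Atp5c1, the γ subunit, rose with LA (0.20, SE 0.08) and fell with PA+NTP (-0.26, SE 0.08) and LA+NTP (-0.22, SE 0.08). None of these 3 changes of Atp5c1 passed with the GC trend removed (0.13, -0.21 and -0.14). The rise of Atp5c1 with LA did not pass without any of the 4 libraries compared (0.15 to 0.24) or LA+NTP replicate 1 (0.20). Its falls were lost without PA replicate 1 (-0.19) or PA+NTP replicate 1 (-0.16), and without LA replicate 1 (-0.20) or LA+NTP replicate 1 (-0.17).

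Among the small subunits in and around the membrane sector, Atp5k, Atp5l and Atp5mpl fell with the FFAs and rose with NTP. Atp5k and Atp5l sit at the interface where ATP synthase pairs into dimers. Atp5k stood at 164 and 173 FPKM with Vehicle, 114 and 92.6 under PA, 104 and 101 under LA, 134 and 168 under PA+NTP, and 152 and 161 under LA+NTP, with log2 fold changes of -0.69, -0.67, 0.51 and 0.57 (SE 0.11 to 0.12). Its falls still passed with the GC trend removed (-0.49 and -0.47) and its rises did not (0.30 and 0.31). Atp5mpl, a small proteolipid, had -0.37, -0.44, 0.47 and 0.63 (SE 0.10). With the GC trend removed its changes were -0.61, -0.72, 0.72 and 0.96, larger than without, and its GC content is 42.9%. Atp5l had -0.46, -0.42, 0.23 and 0.38 (SE 0.09), and 69.7% of its 31-base stretches occur in other genes' transcripts. The calls of Atp5mpl with PA did not pass without Vehicle replicate 2 (-0.35) or PA replicate 2 (-0.34), and that of Atp5k with PA+NTP did not pass without PA replicate 2 (0.33). Atp5l with PA+NTP kept its call in 4 of the 10 fits that leave out a library, at 0.13 without PA replicate 2 and 0.11 without PA+NTP replicate 2. Atp5md, a further proteolipid of the membrane sector, fell with LA (-0.33, SE 0.12), or by 0.56 with the GC trend removed. That call was lost without Vehicle replicate 1 (-0.23), LA replicate 1 (-0.39) or LA replicate 2 (-0.27).

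The peripheral stalk holds F1 still against the membrane. Atp5pb, its long membrane-bound subunit b, stood at 128 and 129 FPKM with Vehicle, 175 and 149.7 under PA, 149 and 146 under LA, 114 and 125 under PA+NTP, and 128 and 118 under LA+NTP. It rose with PA (0.36, SE 0.08) and LA (0.24, SE 0.08) and fell with PA+NTP (-0.49, SE 0.08) and LA+NTP (-0.31, SE 0.08). Atp5o, which joins the stalk to F1 and confers oligomycin sensitivity, fell with PA and with LA (-0.22 and -0.22, SE 0.07) and rose with LA+NTP (0.22, SE 0.07). All 3 calls were lost with the GC trend removed (-0.02, -0.03 and -0.04) and with a trend on transcript length removed (-0.16, -0.08 and 0.02). The calls of Atp5o with PA were lost without either Vehicle library or PA replicate 1 (-0.24 to -0.14), with LA without any of the 4 libraries compared (-0.25 to -0.18), and with LA+NTP without LA replicate 2 (0.18) or LA+NTP replicate 2 (0.19). The rise of Atp5pb with LA was lost with the GC trend removed (0.23) and without any of the 4 libraries compared (0.23 to 0.27). Atp5h and Atp5j fell with PA+NTP relative to PA (-0.20, SE 0.07, and -0.23, SE 0.08), and Atp5h kept that call in 4 of the 10 fits that leave out a library, at -0.10 without PA replicate 1. Atp5j lost it without PA replicate 1 (-0.22), PA replicate 2 (-0.26) or PA+NTP replicate 1 (-0.13). Both falls were also lost under library-size scaling, in either limma fit and when only the groups compared were fitted. Atp5j passed with the GC trend removed in all 4 comparisons (0.49, 0.45, -0.54 and -0.56). Atp5j2, in the membrane, did not pass in any comparison.

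Of the ATP synthase factors, Atpif1, the inhibitor that blocks ATP hydrolysis when the membrane potential collapses, fell with PA (-0.23, SE 0.08) from 178 and 189 to 161 and 145 FPKM and rose with LA+NTP relative to LA (0.22, SE 0.08). Both calls were lost with the GC trend removed (-0.06 and 0.02). They were also lost without either Vehicle library or PA replicate 2 (-0.27 to -0.15), and without either LA library or LA+NTP replicate 2 (0.13 to 0.23). Atpaf1, the chaperone that binds the β subunit before F1 is assembled, went from 13.7 and 13.3 FPKM with Vehicle to 16.1 and 17.6 with PA and 15.6 and 15.4 with LA, and stood at 15.0 and 14.3 with PA+NTP and 11.04 and 12.4 with LA+NTP. Its changes of 0.36, 0.25, -0.27 and -0.44 (SE 0.08) all passed, also with the GC trend removed (0.38, 0.25, -0.29 and -0.45). The rise of Atpaf1 with LA did not pass without either Vehicle library or either LA library (0.23 to 0.27), nor its fall with PA+NTP without PA replicate 2 (-0.21). Atpaf2, the chaperone of the α subunit, did not pass in any comparison, at 7.38 to 9.24 FPKM, except with LA+NTP once the GC trend was removed (-0.28). Dmac2l, coupling factor B, rose with PA (0.40, SE 0.14) and was 1.66-fold lower with PA+NTP than with PA (-0.73, SE 0.14, adjusted p = 0.000622 in edgeR), but has the lowest GC content of the members, 39.0%, and neither change passed with the GC trend removed (0.001 and -0.34). The rise was also lost without either Vehicle library or PA replicate 2 (0.35 to 0.42).

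Members were also compared between each NTP group and Vehicle, a comparison in which few of all genes passed with LA+NTP. With PA+NTP relative to Vehicle 0 members rose and 1 fell by the adjusted p, beside 4.50% and 5.61% of all genes, and with LA+NTP relative to Vehicle 0 rose and 0 fell, beside 0.192% and 0.0922%. None passed the fold threshold in either comparison, beside 2.85% of all genes with PA+NTP and 0.0922% with LA+NTP. At an unadjusted p under 0.05 edgeR had 8 members in each of these comparisons, beside 3476 and 2014 of the 14097 genes tested, and DESeq2 put 2 and 0 past the adjusted p. The member that fell was Uqcrh (-0.28, SE 0.07, adjusted p = 0.0154 in edgeR), a call that was lost without Vehicle replicate 1 (-0.23), Vehicle replicate 2 (-0.32) or PA+NTP replicate 1 (-0.25). A p that misses the threshold does not show that values were equal, and the largest difference among the 40 members was a log2 fold change of -0.33 with PA+NTP (Dmac2l) and 0.28 with LA+NTP (Atp5g2).

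The effect of NTP under LA minus that under PA passed the adjusted p for 0 members and for 0% of all genes in edgeR. At an unadjusted p under 0.05 there were 7 members and 1029 genes, and DESeq2 also called 0 members. The difference was above 0 for 32 of the 40 members and for 50.9% of all genes, with a median of 0.14 beside 0.004 for all genes. The members' median was 0.096 with the GC trend removed and 0.059 with a trend on transcript length removed. The larger of these differences included Atp5e at 0.50 (SE 0.16), Atp5d at 0.43 (SE 0.09) and Atp5g3 at 0.36 (SE 0.14). Of the alternative settings run, members passed only without a filter on low counts, namely Atp5d and Atp5e.

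Genes that work with these complexes were taken from a list chosen with earlier results known, 44 genes in all, of assembly factors, electron donors to ubiquinone, ubiquinone synthesis, carriers of ADP, ATP and phosphate, and regulators. PA raised 16 of them and lowered 5, beside 23.5% and 22.0% of all genes, and LA raised 16 and lowered 6, beside 20.8% and 20.5%. After NTP 5 rose and 21 fell relative to PA, beside 21.7% and 23.0% of all genes, and 7 rose and 20 fell relative to LA, beside 25.9% and 25.6%. Esrra, the nuclear receptor ERRα that switches on respiratory genes, fell with PA (-0.68, SE 0.10) and LA (-0.71, SE 0.10) and rose with NTP (0.73 and 0.80, SE 0.10). The coactivator Ppargc1b fell by 0.54 (SE 0.20) and 1.06 (SE 0.21) and rose by 0.99 and 1.17 (SE 0.20), and its relative Pprc1 followed the same order with -0.34, -0.47, 0.59 and 0.64 (SE 0.07). Other regulators went the opposite way. Gabpa, the DNA-binding subunit of the ETS factor GABP, had 0.39, 0.50, -0.45 and -0.55, Tfam, which packages mitochondrial DNA, had 0.50, 0.48, -0.53 and -0.58, and Yy1 had 0.50, 0.37, -0.42 and -0.43, all past the adjusted p. Etfa, which carries electrons from fatty acid oxidation toward ubiquinone, had 0.61, 0.73, -0.93 and -0.87, and Tmem70, which helps assemble the c ring, had 0.67, 0.65, -0.46 and -0.63. Unlike those of the members, the changes of these 44 genes were not examined with the GC trend removed or with a library left out. The level of Ppargc1b was low, between 0.49 and 1.71 FPKM over the libraries.

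Promoter sequence was available from RefSeq on GRCm38.p6 for 33 of the 40 members, as 250 bases before and 50 after a transcript start. That start can lie away from the start of the gene, as in Atp5d and Atpaf2. Atp5c1, Atp5d, Atp5j and Atpaf1 had 2 windows each, and a gene counted when any of its windows held the site. The core site of the transcription factor NRF1 (GCATGCGC, read on both strands, where GCGCATGC is its reverse) was in 7 of the 33, or 21.2%, beside 3.05% of all 27025 genes with such windows. The ETS core (CCGGAAG) was in 12 of 33, or 36.4%, beside 9.93% of all these genes, and the site of ERR (TCAAGGTCA) in 2, those of Atp5g3 and Sdhd, beside 0.466%. The YY1 core (AAGATGGCG) was in 3 and the cAMP response element (TGACGTCA) in 2, beside 1.64% and 2.03%, and the SP1 box (GGGCGG) in 17, beside 38.2%. Below are 4 stretches with the NRF1 site in capitals, shown as examples of the match in members described above.
Atp5g2, chr15:102671055-102671114, minus strand: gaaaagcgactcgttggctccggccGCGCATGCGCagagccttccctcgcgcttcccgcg
Atp5k, chr5:108434415-108434474, minus strand: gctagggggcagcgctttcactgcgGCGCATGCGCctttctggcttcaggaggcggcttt
Uqcr11, chr10:80406793-80406850, minus strand: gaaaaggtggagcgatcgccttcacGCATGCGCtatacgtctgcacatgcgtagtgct
Cycs, chr6:50566597-50566654, minus strand: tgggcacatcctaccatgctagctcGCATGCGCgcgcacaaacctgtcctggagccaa
In Atp5g2 and Atp5k the site and its reverse overlap, so that 10 bases are in capitals. Atp5g2, Atp5k and Uqcr11 fell with both FFAs and Cycs rose, but with the GC trend removed the changes of Cycs did not pass and Uqcr11 and Uqcrc1 turned direction. The other 3 members with the NRF1 site are Atp5l, Uqcrc1 and Sdhb, of which Atp5l and Uqcrc1 fell and Sdhb did not pass with either FFA. A match of letters is a description of the window and does not show that a factor binds there.

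The changes followed the base composition of the transcripts. GC content was known for 13977 tested genes. Its Spearman's rho with how far each gene stood above or below its 10-library mean was -0.469 to -0.569 in the 4 FFA libraries and 0.343 to 0.572 in the other 6. Over the 40 members rho was -0.455 to -0.530 and 0.364 to 0.557. These are correlations across genes within a library, and genes are not independent replicates. Members that PA lowered were richer in GC (median 53.9%) and shorter (median 663 bases) than those it raised (45.2% and 1684 bases). With LA the medians were 53.9% and 663 bases for those that fell and 47.9% and 1882 bases for those that rose. The part of GC content or length in the changes was not tested beyond removing the trend. The split of reads is uncertain for further members whose 31-base stretches occur in other genes' transcripts, namely Atp5h (60.8%), Uqcrb (54.3%), Atp5o (46.4%), Atp5md (44.0%), Atpaf1 (35.4%) and Atp5pb (28.9%). Smaller shares include those of Atp5k (20.5%), Uqcr11 (19.5%), Atp5c1 (18.2%), Uqcrh (16.4%) and Uqcr10 (5.45%). Exons of Uqcrc2, Atp5pb, Atp5a1, Atp5j and Uqcrb overlap protein-coding genes on the opposite strand (Pdzd9, Wdr77, Haus1, Gabpa and Gm10767). The same holds for Sdhaf2 (Cpsf7), Atp5md (Taf5) and Sdhaf1 (E130208F15Rik), so the counts of all these members are uncertain as well.

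**Figure D5:**
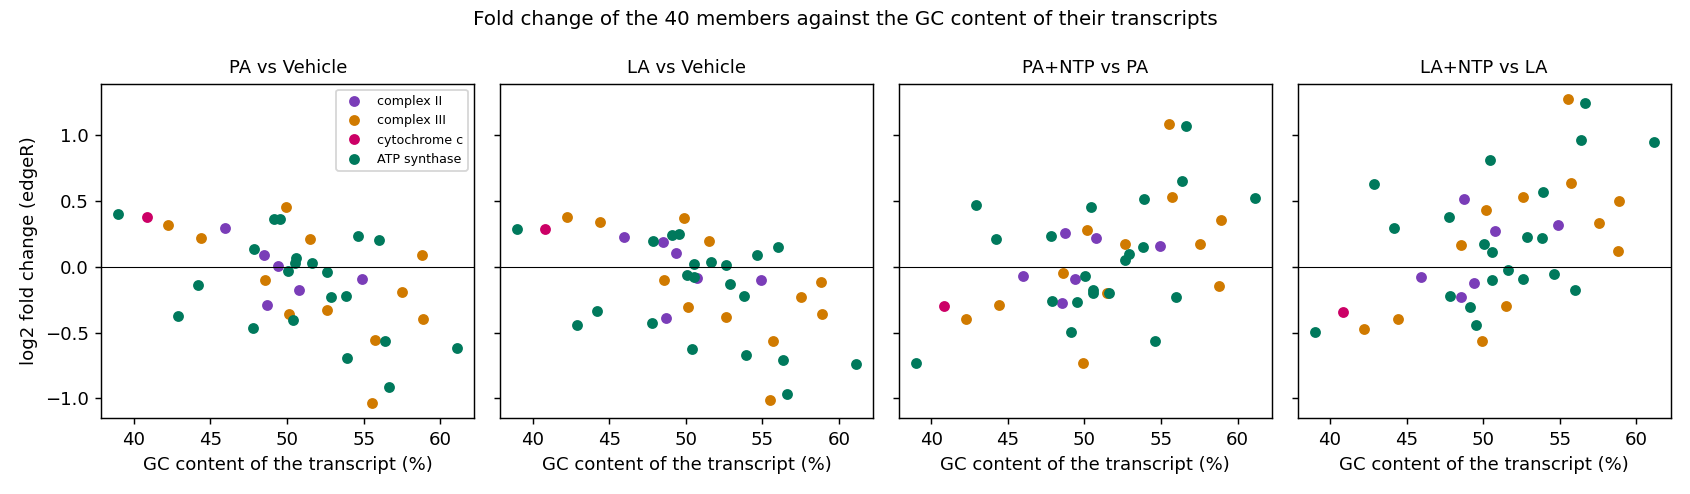
Log2 fold change of the 40 members (edgeR) against the GC content of their transcripts in percent, with 1 panel per comparison and color by complex. Points fall from left to right in the PA and LA panels and climb in the NTP panels, and Atp5mpl, at 42.9% GC, and Atp5e, at 54.6%, stand off these trends.

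When a smooth trend on GC content was removed from each library, 17 members passed with PA, 14 with LA, 21 with PA+NTP relative to PA and 23 with LA+NTP relative to LA, and 13 of 24, 12 of 25, 18 of 27 and 16 of 27 of the members that had passed did so again. Of all genes 31.6%, 17.4%, 27.9% and 27.9% passed in the same fits. Past the fold threshold were then 3 members with each FFA, namely Uqcr10, Atp5g2 and Atp5mpl, 6 with PA+NTP (Uqcr10, Atp5g2, Atp5mpl, Uqcrh, Atp5e and Uqcc2) and 5 with LA+NTP (Uqcr10, Atp5g2, Atp5g3, Atp5mpl and Uqcrh), beside 8.48% (PA), 3.22% (LA), 6.27% (PA+NTP) and 5.81% (LA+NTP) of all genes. Uqcr10, Uqcrh, Cyc1, the 3 subunit c genes, Atp5l, Atp5mpl, Atpaf1 and Sdhc passed in all 4 comparisons both with and without the trend. For Sdhc, Uqcrq, Sdhaf1 and Atp5j2 the GC content came from transcripts of 3171, 1521, 2490 and 955 bases. Their deposited lengths average 1179, 511, 987 and 496, so their values with the trend removed are less certain.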

How the data were processed

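RNA from primary mouse hepatocytes was sequenced in 10 libraries, 2 in each of 5 groups. Per the submitters' processing notes, the authors mapped reads with HISAT and Bowtie2 to mm10 and quantified them with RSEM (versions and strandedness: not given in the sources used here). Here the deposited files hold an expected count and an FPKM for each gene with an FPKM of at least 0.01, and genes not listed in a library were set to 0. Of the expected counts 71.7% to 76.7% were whole, and all were rounded. Library totals ran from 13142588 to 60046937, and precision is lowest in the shallowest libraries and for members of low level. Replicates follow the labels, since numbers in the file names differ from them.

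Counts were scaled by TMM, filtered by filterByExpr (14097 genes tested, 3958 dropped) and fitted in edgeR 4.0.16 (R 4.3.3) with 1 coefficient per group. The quasi-likelihood F test was applied to 7 contrasts, with Benjamini-Hochberg adjustment over all genes tested and thresholds of 0.05 and, where stated, a 1.5-fold change. The SE is the log2 fold change divided by the square root of F. On simulated data for PA against Vehicle (13882 genes, 200 changed) 180 changes were recovered, 84 of 100 at 1.5-fold and 96 of 100 at 2-fold, with 19 false calls by adjusted p. The simulation drew on the fitted spread, spared genes of low level and held no GC trend. In the data themselves 23.5% of genes rose and 22.0% fell with PA, so these rates may not carry over. Alternatives were DESeq2 1.42.0, library-size scaling, other filters, limma 3.58.1 on log2(FPKM + 1) and log2(FPKM + 0.1), and fitting only the groups compared. Further ones were a replicate block, removal of a loess trend (span 0.4) on GC content or length, and leaving out each library. A version of the study's NOISeq rule, written here for the FPKM, was also run and called far fewer genes than the study reported. GC content and shared 31-base stretches came from RefSeq and GENCODE transcripts of GRCm38, and length from the deposited data.

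The members and lists were chosen with earlier results of these data known. Named were the members past the adjusted p in any contrast, the highest and lowest of each complex, and the core subunits, cytochrome c, subunit c genes, inhibitor and assembly factors of F1 by role. Others are named where they passed in no comparison.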

Additional observations from a re-analysis of the deposited data

How the results depend on the processing

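Of 104 changes of single members that passed, 44 kept their direction and call under the 11 alternative fits and the 10 fits that leave out a library, and 59 did when the GC settings were set aside. With the GC trend removed 59 kept their call, 31 lost it and 14 reversed. The reversed values, without and with a replicate block, were 0.17 and 0.17 (PA), 0.15 and 0.15 (LA), -0.21 and -0.21 (PA+NTP relative to PA) and -0.16 and -0.16 (LA+NTP relative to LA) for Uqcrc1, 0.0296 and 0.0297, 0.0858 and 0.0862, -0.0893 and -0.0878, and -0.076 and -0.0749 in the same order for Uqcr11, -0.0697 and -0.0684 (LA), 0.0244 and 0.0217 (PA+NTP) and 0.0851 and 0.0843 (LA+NTP) for Cycs, -0.0308 and -0.0306 for Atp5d (PA+NTP) and -0.0352 and -0.0371 for Atp5o (LA+NTP). Dmac2l gave 0.00414 with LA+NTP without the block and -0.00549 with PA with it. The cause was not tested.

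The version of the NOISeq rule written here called 0 members with PA, LA, PA+NTP relative to PA and LA+NTP relative to LA. With LA, 3 members passed the fold threshold with the GC trend removed, with the length trend removed and with the block and GC trend together, and 14 (GC) and 15 (block with GC) passed the adjusted p. The median log2 fold change of the members moved to 0.0219 (GC) and 0.0215 (block with GC) with PA, to 0.000338 (GC), 0.000124 (block with GC) and 0.0193 (length) with LA, to -0.0912 (GC), -0.0902 (block with GC) and 0.0731 (limma, pseudocount 0.1) with PA+NTP relative to PA, and to 0.0126 (GC), 0.00941 (block with GC) and 0.00146 (length) with LA+NTP relative to LA. With PA+NTP relative to Vehicle the members past the adjusted p were 2 in DESeq2, 3 without a filter, 3 with the replicate block, 4 with the length trend removed and 2 with block and GC. With LA+NTP relative to Vehicle they were 2 without a filter and 3 when only the groups compared were fitted, and the difference between the NTP effects gave 2 without a filter.

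The difference between replicate 1 and replicate 2 was correlated across genes between groups, and the correlations ran from -0.085 to 0.129. They cannot show whether same-numbered libraries shared a culture or mouse, which the labels do not give. The replicate block without GC correction changed the call of 0 of the 104. Leaving out 1 library gave 15 to 26 members past the adjusted p with PA, 15 to 25 with LA, 21 to 27 with PA+NTP, 24 to 29 with LA+NTP, and 0 to 4 with PA+NTP relative to Vehicle. The low values were 15 without Vehicle replicate 2 (PA), and 15 without Vehicle replicate 1 and 16 without LA replicate 1 (LA). Past the fold threshold were 4 to 5, 5 to 7, 5 to 8 (8 without PA replicate 2 or PA+NTP replicate 1) and 6 to 9. Medians ran from -0.142 to -0.0228 (PA), -0.146 to -0.00394 (LA), -0.0311 to 0.02 (PA+NTP) and 0.0893 to 0.238 (LA+NTP).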
